A study of Mus musculus with 90 samples.

Results

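The Obox genes encode homeobox transcription factors, and the 5 members described here were the rows of the count table named Obox1, Obox2, Obox3, Obox5 and Obox6, of 24422 genes in all. Single mouse oocytes and embryos from the CD-1 Plag1 knockout (KO) colony were sequenced as 90 libraries: 16 WT and 16 Plag1 KO oocytes at metaphase II (MII) with no mating, 14 WT and 14 matPlag1KO 2-cell (2c) embryos, and 15 WT and 15 matPlag1KO 8-cell (8c) embryos. MII oocytes were picked 21 to 23 h after human chorionic gonadotropin, and the labels give 45 to 47 h for 2c and 71 to 73 h for 8c embryos. WT and KO females were all superovulated and, for embryos, all mated with WT studs, so that a matPlag1KO embryo is heterozygous, lacks the maternal Plag1 allele and keeps a WT paternal one, whereas KO oocytes came from females without a functional allele. Embryos were cultured in KSOM and cumulus cells were stripped with hyaluronidase. Libraries were made in 2 pools, libA and libB in the labels, which are called plates A and B here because each library carries a well name; that each pool was 1 plate is inferred. The donor female of a library is not named in the labels, so p-values measure the spread between these libraries.

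Obox stands for oocyte-specific homeobox. The genes belong to a family of rodents that arose by duplication and lies in a cluster on chromosome 7. A homeobox encodes the homeodomain, a helix-turn-helix fold that reads short DNA motifs. In mice some members are stored as maternal mRNA in the oocyte and others are transcribed by the embryo around zygotic genome activation (ZGA), the step at which the embryo's own genome takes over from maternal mRNA, and OBOX proteins are known to take part in that activation.

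The members are so alike in sequence that this bears on every count below. The last 100 bases before the annotated transcription start are shown for the 4 members with an entry in the RefSeq promoter table (GRCm38.p6), since the assay tags 5′ ends of mRNA and maternal and embryonic members can be compared here base by base. Each reads 5′ to 3′ on the gene's strand and capitals mark TATATAA, which resembles the box that helps place RNA polymerase II.
Obox1: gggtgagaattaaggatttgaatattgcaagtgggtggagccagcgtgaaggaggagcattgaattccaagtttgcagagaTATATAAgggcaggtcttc
Obox5: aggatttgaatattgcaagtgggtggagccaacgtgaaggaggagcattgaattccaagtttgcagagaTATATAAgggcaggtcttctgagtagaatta
Obox3: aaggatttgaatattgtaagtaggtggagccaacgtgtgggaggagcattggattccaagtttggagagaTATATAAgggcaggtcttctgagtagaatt
Obox2: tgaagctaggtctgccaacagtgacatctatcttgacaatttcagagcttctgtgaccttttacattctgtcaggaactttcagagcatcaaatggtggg

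These stretches lie in GRCm38.p6 at chr7:15547157-15547256 (+) for Obox1, chr7:15750270-15750369 (+) for Obox5, chr7:15639778-15639877 (-) for Obox3 and chr7:15388751-15388850 (+) for Obox2. Aligned base to base, Obox1 and Obox5 were identical at 87 of 88 bases, Obox3 and Obox5 at 93 of 99, and Obox1 and Obox3 at 82 of 89. Obox2 matched Obox1 at 47 of 91 aligned bases, but their stretches are set by annotated starts and appear offset. The Obox2 stretch ends in gagcatcaaatggtggg. In Obox7, a relative outside the 5 members, the similar gagcatcaaatgttggg runs on into tgagaattaagg, which lies at the opening of the Obox1 stretch. The low match therefore does not measure how far the promoters of Obox1 and Obox2 differ. The sequence TATATAA began 19 bases before the annotated start of Obox1, 30 before that of Obox3 and 31 before that of Obox5, and it occurred on either strand in 3.24% of all 32851 promoter windows in the table, each of 300 bases. GGATTA, searched on both strands, was in the window of Obox3 but in that of no other member with an entry, against 7.06% of all windows. The consensus motif of PLAG1 was in none of the 4 windows, against 19.2% of all windows, and this says only that its letters are not in these 300 bases. Obox6 had no entry.

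The coding sequences showed the same closeness, with Obox6 the most distant. Between the longest annotated coding sequences, Obox1 and Obox2 were 98.7% identical over 612 aligned bases, Obox1 and Obox5 were 95.5% identical over 615, and Obox1 and Obox3 were 94.0% identical over 615. Obox6 was between 77.9% and 80.4% identical to the other 4.

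To see how much of each gene a short read can tell apart, each 32-base window of the annotated exons was looked up on both strands of mm9, the build the deposited counts use. For Obox6, 84.4% of 1246 exonic windows occurred at 1 place, and for Obox5 59.5% of 1978 did. The shares were 20.8% of 2409 windows for Obox3, 19.5% of 1576 for Obox1 and 0 of 1462 for Obox2. The first 100 bases of each gene, as the count table places it, were looked up as well. There 63 of 69 windows of Obox6 and 27 of 69 of Obox5 were unique, and 0 of 69 in both Obox1 and Obox3. Tags of 5′ ends would fall there if transcription began at that start, but counts per gene do not show where tags lay. The read length and the treatment of reads that match several places are not given in the sources used here, so counts of Obox1, Obox2 and Obox3 may be shared with other copies, and only Obox6 is largely free of this limit.

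**Figure D1:**
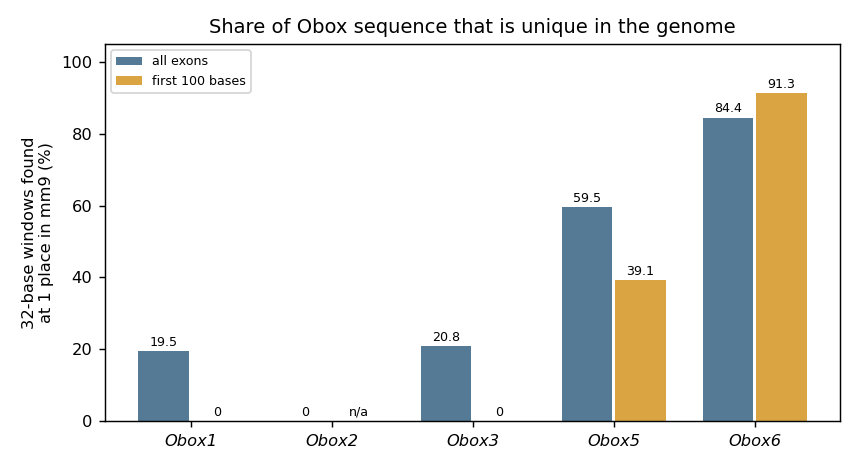
The bars give, for each Obox gene, the share (%) of 32-base windows found at exactly 1 place in mm9, over all annotated exons and over the first 100 bases of the gene in the count table. Obox6 is at 84.4% and 91.3%, Obox5 at 59.5% and 39.1%, and the start of Obox1 and Obox3 holds no unique window; Obox2 has no bar for its start because the table places it on an unlocalised piece of chromosome 7.

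In the count table (mm9), Obox1 lies at chr7:16132606-16142195 (+), Obox3 at chr7:16210655-16225126 (-), Obox5 at chr7:16335719-16344623 (+) and Obox6 at chr7:16418599-16425028 (-). The Obox2 row instead lies on chr7_random at 257109 to 266801 (+), while the GENCODE annotation of the same build has Obox2 at chr7:15939386-15983894. Obox2 was listed at 0 in all 90 libraries. Over the 37319537 gene counts of the 78 libraries analysed, a count of 0 allows a level of up to 0.0804 CPM (counts per 1e+06 gene counts) for reads assigned to that row, an upper limit that takes 3 counts as the floor. Since none of its exonic windows is unique and 97.8% of them also occur outside chromosome 7, this limit does not extend to Obox2 mRNA. Obox2 is therefore not in the results that follow, and the other 4 members passed the filter on low counts (at least 1 CPM in at least 5 libraries).

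Libraries with a median below 1 CPM were left out, leaving 16 WT and 14 KO oocytes, 11 WT and 11 matPlag1KO 2c embryos, and 15 WT and 11 matPlag1KO 8c embryos. The 78 held 92475 to 2502421 gene counts, with medians of 395023 (WT) and 649899 (KO) in MII, 148473 and 163626 for 2c embryos, and 564009 and 393914 for 8c embryos. Plag1 itself had 326 counts in 16 WT oocytes and 4 counts in 3 of 14 KO oocytes. At 2c it had 1 count in the 11 WT embryos and 91 counts in 9 of the 11 matPlag1KO embryos, which carry a WT paternal allele. The summed level of 8 oocyte markers was highest in MII, at 15795 ± 11061 CPM (SD, n = 16) in WT and 22188 ± 8217 (n = 14) in KO. The 10 cumulus and granulosa markers summed to at most 35.3 CPM in any library. CPM values here use library sizes scaled by the trimmed mean of M-values (TMM), which compares libraries within a stage. Between stages, counts were scaled to the ERCC spike-in RNA added to each library, because the amount of mRNA changes. A gene is called where its p from the quasi-likelihood test of edgeR, adjusted by the method of Benjamini and Hochberg over 16511 tested genes, is under 0.05.

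The 4 members fell into 2 maternal and 2 embryonic patterns. Obox1 and Obox5 were highest in MII oocytes and fell to nearly 0 by 8c, Obox3 had its counts at 2c almost alone, and Obox6 rose at 2c and again, on the spike-in scale, at 8c. All 4 were called in both steps, MII to 2c and then 2c to 8c, with the same direction in WT and matPlag1KO. A step from MII that is named matPlag1KO, here and below, compares Plag1 KO oocytes with matPlag1KO embryos. The background for this is large: 65.4% and 63.8% of all genes were called between MII and 2c in WT and matPlag1KO, and 48.1% and 48.6% between 2c and 8c.

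**Figure D2:**
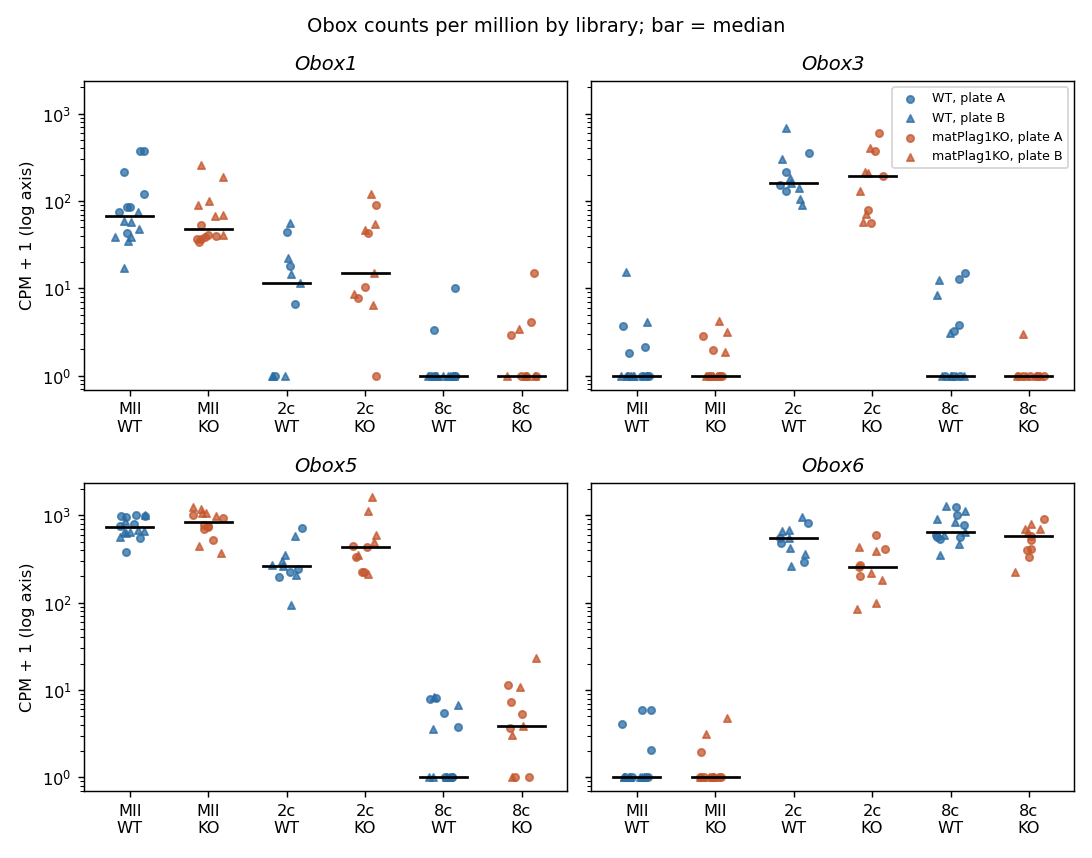
Each point is 1 library, with the level in CPM + 1 on a log axis, in WT (blue) and in Plag1 KO oocytes or matPlag1KO embryos (red), on plate A (circles) or plate B (triangles), and black bars are group medians. Obox1 and Obox5 are high in MII, Obox3 at 2c (WT median 158 CPM) and Obox6 at 2c and 8c (WT medians 547 and 649 CPM).

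Obox5 was the maternal member with the steadiest level between oocytes. In WT oocytes it ranged from 378 to 1017 CPM with a median of 727, and in KO oocytes from 374 to 1239 CPM with a median of 851. At 2c it was still counted in every embryo, between 93.7 and 708 CPM (median 264) in WT and between 213 and 1636 CPM (median 430) in matPlag1KO. At 8c the medians were 0 and 2.92 CPM, with 16 counts in 7 of 15 WT embryos and 19 counts in 8 of 11 matPlag1KO embryos. The MII and 8c libraries did not overlap. The share of all genes whose stages separate in this way is not given, here or for Obox3 and Obox6 below, so such separation is not shown to be particular to these genes.

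On the spike-in scale Obox5 fell by 2.77 ± 0.40 (log2, SE) from MII to 2c in WT (edgeR adjusted p = 8.69e-09) and fell by 2.16 ± 0.40 in matPlag1KO (adjusted p = 2.41e-06). The median gene fell by 1.46 and 1.42 in the same comparisons. Scaled by TMM, which moves the median gene to -0.03 in WT and 0.14 in matPlag1KO, the WT fall of Obox5 was 1.28 (edgeR adjusted p = 0.000423), and in matPlag1KO the value was -0.60 and no longer called (adjusted p = 0.108). From 2c to 8c Obox5 fell by 5.84 ± 0.46 in WT (edgeR adjusted p = 3.76e-19) and fell by 6.11 ± 0.52 in matPlag1KO (adjusted p = 1.97e-17). Pooled over the embryos of a group, the spike-scaled counts at 8c were 65.7-fold lower than at 2c in WT (95% counting interval 40.2 to 116) and 72.1-fold lower in matPlag1KO (46.0 to 120). Such intervals, here and below, cover counting error only. An edgeR p given beside a pooled ratio belongs to the fitted fold change, which can be smaller than that ratio where counts are few.

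Obox1 had the other maternal pattern, with a much wider spread. WT oocytes ranged from 16.0 to 376 CPM (median 65.8) and KO oocytes from 33.2 to 258 CPM (median 46.4). At 2c it had 34 counts in 7 of 11 WT embryos and 101 counts in 10 of 11 matPlag1KO embryos, with medians of 10.4 and 13.8 CPM. At 8c it had 5 counts in 2 of 15 WT and 7 counts in 4 of 11 matPlag1KO embryos.

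Spike-scaled, Obox1 fell by 4.52 ± 0.70 (log2, SE) from MII to 2c in WT (edgeR adjusted p = 3.99e-08) and fell by 2.98 ± 0.64 in matPlag1KO (adjusted p = 3.74e-05). With TMM the WT value was -2.75 and still called, and the matPlag1KO value was -1.04 with an edgeR adjusted p of 0.0674. From 2c to 8c the pooled counts were 11.2-fold lower in WT (95% counting interval 4.37 to 36.8) and 14.1-fold lower in matPlag1KO (6.61 to 36.02), and both were called (edgeR adjusted p = 0.00126 and 0.000164). Within plate A alone the WT step missed the threshold (adjusted p = 0.0899).

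Obox3 was counted almost only at 2c. It ranged from 88.5 to 688 CPM (median 158) in WT 2c embryos and from 55.8 to 597 CPM (median 194) in matPlag1KO 2c embryos. In MII oocytes it had 13 counts in 5 of 16 WT and 6 counts in 5 of 14 KO libraries, and the medians were 0. At 8c it had 24 counts in 7 of 15 WT embryos and 1 count in 1 of 11 matPlag1KO embryos. No 2c embryo overlapped with any oocyte or 8c embryo.

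Pooled and spike-scaled, Obox3 was 57.5-fold higher at 2c than in MII in WT (95% counting interval 33.3 to 109) and 125-fold higher in matPlag1KO (56.9 to 341), and both rises were called (edgeR adjusted p = 7.46e-14 and 3.38e-14). From 2c to 8c it was 33.3-fold lower in WT (22.1 to 52.6; edgeR adjusted p = 6.77e-12). In matPlag1KO the ratio rests on the single count at 8c and was 559-fold lower, with a counting interval from 99.9 to 22115. The fitted fall was 220-fold (edgeR adjusted p = 2.11e-13). Between MII and 8c Obox3 was not called in either genotype (edgeR adjusted p = 0.267 in WT and 0.189 in matPlag1KO), while the other 3 tested members and 70.7% and 69.3% of all genes were called. With TMM the WT difference was 1.31 (adjusted p = 0.038).

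Obox6 was near 0 in oocytes and abundant after. It had 18 counts in 4 of 16 WT oocytes, all on plate A, and 9 counts in 3 of 14 KO oocytes, 8 of them on plate B. Well A5 alone held 13 of the WT counts on plate A and 7 of the KO counts on plate B. At 2c it ranged from 264 to 948 CPM (median 547) in WT and from 82.7 to 596 CPM (median 255) in matPlag1KO. At 8c it ranged from 353 to 1280 CPM (median 649) in WT and from 225 to 915 CPM (median 576) in matPlag1KO. No oocyte overlapped with any embryo.

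Pooled and spike-scaled, Obox6 was 94.3-fold higher at 2c than in MII in WT (95% counting interval 59.4 to 160) and 91.9-fold higher in matPlag1KO (48.1 to 202), with edgeR adjusted p of 2.30e-19 and 1.23e-16. From 2c to 8c it rose by a further 1.42 ± 0.43 (log2, SE) in WT (edgeR adjusted p = 0.00421) and by 1.84 ± 0.46 in matPlag1KO (adjusted p = 0.000514). The median gene rose by 0.53 and 0.30. With TMM the WT value was 0.49 and not called (edgeR adjusted p = 0.179), while in matPlag1KO it was 1.00 and called (adjusted p = 0.00854). Within plate A alone the spike-scaled values were 1.42 in WT (adjusted p = 0.0983) and 1.24 in matPlag1KO (adjusted p = 0.121).

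The next question is whether the loss of maternal Plag1 was accompanied by a change in any Obox gene. At 2c, where 4.92% of all genes were called between matPlag1KO and WT, 0 of the 4 tested members were called by the quasi-likelihood test, 3 of the 4 had an unadjusted p under 0.05, and DESeq2 called 2 of them. The 4.92% is for the quasi-likelihood test. Shares of all genes with an unadjusted p under 0.05, or called by DESeq2, are not given here or below. Those counts of members thus have no background to be read against.

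Obox6 had the clearest separation at 2c. WT embryos averaged 548 ± 214 CPM (SD, n = 11) and matPlag1KO embryos 285 ± 156 CPM (n = 11). Of the 11 matPlag1KO embryos, 6 lay below the lowest WT embryo and 1 lay above the WT median, while 4 WT embryos lay above the highest matPlag1KO embryo. The log2 fold change was -0.95 ± 0.33 (SE; 95% interval -1.61 to -0.29), with p = 0.00519 and an edgeR adjusted p of 0.0742. The likelihood ratio test of edgeR gave an adjusted p of 0.0437 and the Wald test of DESeq2 one of 0.0224, so the call depends on the test. Other settings moved it away from a call. With spike-in totals in place of TMM the value was -0.85 (edgeR adjusted p = 0.292). With all 90 libraries kept it was -0.74 (edgeR adjusted p = 0.189). Within plate A the value was -0.71 (edgeR adjusted p = 0.662) and within plate B -1.29 (adjusted p = 0.0695).

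Obox5 was at 312 ± 178 CPM (SD, n = 11) in WT and 551 ± 440 CPM (n = 11) in matPlag1KO 2c embryos, and 8 of 11 matPlag1KO embryos lay above the WT median. Its log2 fold change was 0.82 ± 0.34 (SE; 95% interval 0.15 to 1.49), with an edgeR adjusted p of 0.133 and a DESeq2 adjusted p of 0.0324. On plate B the value was 1.29 (edgeR adjusted p = 0.0702) and on plate A it was -0.10. Of the 6 matPlag1KO embryos on plate B, those in wells D6 and D7 had 1636 and 1109 CPM of Obox5 and the other 4 had 213 to 593 CPM. The same 2 embryos had the lowest Obox6 levels of their group, at 97.9 and 82.7 CPM, and Obox1 levels of 53.0 and 120 CPM. Obox1 was at 15.1 ± 18.5 CPM (n = 11) in WT and 35.8 ± 39.3 CPM (n = 11) in matPlag1KO, a log2 fold change of 1.24 ± 0.58 (edgeR adjusted p = 0.195), with 0.82 on plate A and 1.45 on plate B. For Obox3 the means were 228 ± 173 and 217 ± 175 CPM (n = 11 each) and the log2 fold change was -0.07 ± 0.42 (edgeR adjusted p = 0.985). The 95% interval for Obox3, -0.89 to 0.76, bounds what these embryos can tell and leaves room for a difference in either direction.

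Levels of stage markers at 2c are given beside these values, with no test between genotypes. The 6 markers of cleavage embryos with an active genome summed to 1228 ± 614 CPM (SD, n = 11; 172 to 2184) in WT and 385 ± 286 CPM (n = 11; 157 to 1118) in matPlag1KO, with Krt8 at 0 in WT and no marker at 0 in matPlag1KO. Nearly all of this sum was 1 gene, Dppa5a (1219.5 and 373 CPM), while each of the other 5 averaged at most 5.40 CPM in both genotypes and Krt18, Krt8, Cdx2 and Fgf4 had slightly higher means in matPlag1KO. The 8 oocyte markers summed to 3526 ± 1436 CPM (1558 to 6735) in WT and 5137 ± 1982 CPM (2439 to 8749) in matPlag1KO, with none at 0. The gene with the widest gap was Bmp15 (394 and 1400.1 CPM), 6 of the 8 had a higher mean in matPlag1KO, and Zp3 (143 and 74.4 CPM) and Zp2 (65.0 and 61.8 CPM) had a lower one. Cumulus and granulosa markers summed to 3.51 ± 5.37 and 9.41 ± 12.95 CPM, with Amh, Inha, Ptx3 and Cd44 at 0 in both. The part of these in the Obox values was not tested. In whole embryos, fewer cells with a transcript and less transcript per cell cannot be told apart.

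In MII oocytes, with a background of 0.781%, 0 of the 4 members were called by edgeR and by DESeq2, and 0 had an unadjusted p under 0.05. Obox5 was at 760 ± 194 CPM (SD, n = 16) in WT and 840 ± 270 CPM (n = 14) in KO (log2 fold change 0.14 ± 0.28, edgeR adjusted p = 1), with a 95% interval from -0.42 to 0.70. Obox1 was at 108 ± 113 CPM in WT and 77.5 ± 66.6 CPM in KO, a log2 fold change of -0.47 ± 0.41 (edgeR adjusted p = 0.788).

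The 2 plates gave Obox1 opposite directions in oocytes. On plate A the WT level was 170 ± 135 CPM (SD, n = 8) and the KO level 39.2 ± 6.28 CPM (n = 7), a log2 fold change of -2.06 (edgeR adjusted p = 0.0489). On plate B the WT level was 45.1 ± 17.7 CPM (n = 8) and the KO level 116 ± 78.4 CPM (n = 7), a log2 fold change of 1.34 (edgeR adjusted p = 0.137). The genotypes had swapped rows between plates, so that on both plates the higher group was the one in row A. Obox6, near 0 in oocytes, also changed direction, with log2 fold changes of -2.47 on plate A and 2.24 on plate B, neither of them called.

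Single wells repeated this. In well A5 Obox1 had 564 counts (213 CPM) in the WT oocyte of plate A and 475 counts (258 CPM) in the KO oocyte of plate B. In well A2 it had 376 CPM on plate A and 189 CPM on plate B. These were the highest wells on both plates among the 7 row A wells with 2 libraries, and the A5 libraries were also the deepest on each plate, with 2502421 and 1772844 gene counts. In row B no library exceeded 73.2 CPM. Obox5 had WT means of 808 and 712 CPM and KO means of 773 and 907 CPM on plates A and B. The source of the Obox1 pattern by well was not tested, and a genotype value of Obox1 pooled over plates averages opposite directions.

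**Figure D3:**
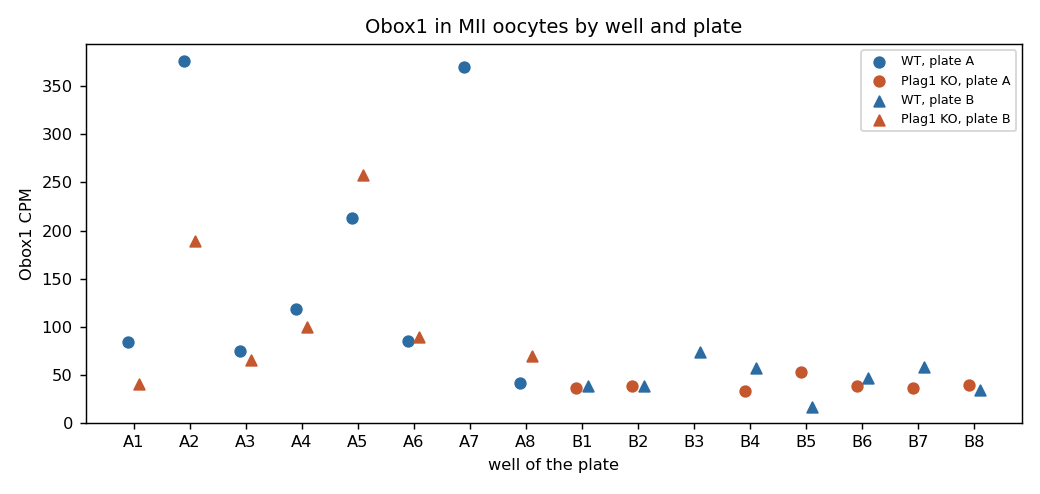
Obox1 (CPM, linear axis) in each MII library, placed by its well, for WT (blue) and Plag1 KO (red) oocytes on plate A (circles) and plate B (triangles). The high values are in row A on both plates, which held WT oocytes on plate A and KO oocytes on plate B; well A5 is at 213 and 258 CPM.

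At 8c, with a background of 1.74%, 0 of 4 members were called by edgeR and by DESeq2, and 1 had an unadjusted p under 0.05. That member was Obox3, with the 24 counts in WT and 1 count in matPlag1KO given above. Scaled to depth, the pooled level was 14.6-fold lower in matPlag1KO, with a 95% counting interval from 2.37 to 599, and the edgeR adjusted p was 0.0722 (0.0367 by the likelihood ratio test). Of the 15 WT embryos 7 lay above the highest matPlag1KO embryo and the other 8 had no count. By plate, Obox3 had 14 counts in WT and 0 in matPlag1KO on plate A, and 10 and 1 on plate B. Obox6 was at 769 ± 288 CPM (SD, n = 15) in WT and 566 ± 209 CPM (n = 11) in matPlag1KO, a log2 fold change of -0.44 ± 0.30 (edgeR adjusted p = 0.548). Obox1 and Obox5 had too few counts at 8c for a level to be compared closely, with 7 against 5 and 19 against 16 counts in matPlag1KO and WT.

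Whether the genotype difference itself changed between stages was tested as an interaction. Between 2c and MII, where 3.31% of genes were called, 0 of 4 members were called by edgeR and 1 had an unadjusted p under 0.05, and DESeq2 called 0. That was Obox1 (log2 difference 1.71, edgeR adjusted p = 0.171), whose MII value rests on the plates described above. Between 8c and 2c, with 2.3% of genes called, 0 of 4 were called by edgeR and by DESeq2 and 1 had an unadjusted p under 0.05, Obox3 (log2 difference -2.83, edgeR adjusted p = 0.0939).

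**Figure D4:**
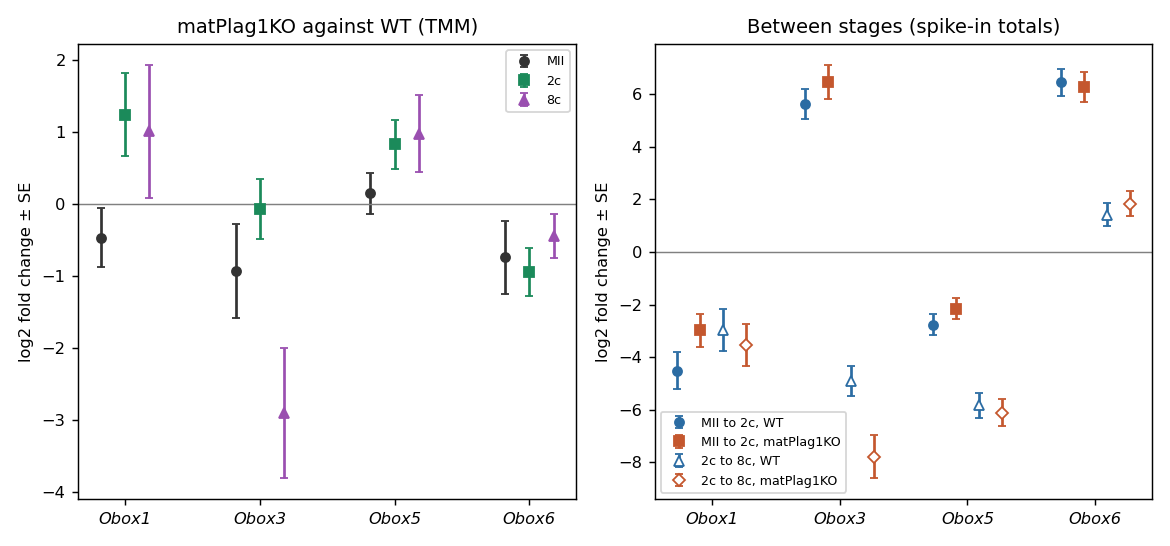
Log2 fold changes of the 4 tested Obox genes are shown with SE bars from edgeR. On the left, Plag1 KO oocytes (MII) and matPlag1KO embryos (2c and 8c) are set against WT (TMM). On the right are steps between stages in WT (blue) and from KO oocytes through matPlag1KO embryos (red). MII to 2c is filled and 2c to 8c open, scaled to spike-in totals. Every between-stage value shown was called and none of the genotype values was; Obox6 at 2c is at -0.95 and Obox3 at 8c, with 1 count in matPlag1KO, at -2.90.

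The genes with the pattern most like each member were found by Pearson's r on log2(CPM + 1) over the 78 libraries, among 10840 genes with a mean of at least 10 CPM in some group. These r describe libraries that share stage, plate and depth. The r and the CPM means of these genes use TMM library sizes, which do not follow the change in mRNA amount between stages. Nearest to Obox5 were 7420461P10Rik and Tcl1, a coactivator of AKT known for its high level in oocytes, both at r = 0.962. On the TMM scale Tcl1 averaged 7570 CPM in WT oocytes, 5048 CPM in WT 2c embryos and 35.4 CPM in WT 8c embryos. Nearest to Obox1 were Gm15441 (r = 0.872) and Txnip, a thioredoxin-binding protein (r = 0.868). These are overlapping genes on opposite strands of chromosome 3, and strand was not stated for the counting, so their reads cannot be told apart.

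Obox3 was most like Parp10, a mono-ADP-ribosyltransferase (r = 0.930), and Rfpl4b (r = 0.921), both of which averaged above 45 CPM in 2c embryos of either genotype and below 1 CPM at other stages. Obox6 was most like Nop16, a protein of ribosome assembly (r = 0.981), and Gm3139 (r = 0.979). Nop16 was at 392 CPM in WT and 139 CPM in matPlag1KO 2c embryos, a log2 fold change of -1.50 ± 0.35 that was called (edgeR adjusted p = 0.00592), and Gm3139 was at 245 and 134 CPM (-0.88 ± 0.33, adjusted p = 0.0986). These genes were picked over libraries that include the same 2c embryos, so a difference shared with Obox6 is partly built in. None of the nearest genes of Obox1, Obox3 and Obox5 was called at 2c, with the lowest edgeR adjusted p at 0.0779 (Gm15441). Within the family, Obox1 and Obox5 had r = 0.804 with each other, and Obox3 had r = 0.429 with Obox6 and 0.266 with Obox5. Obox7, a relative outside the 5 members that was added after its values were seen, lay with the maternal ones (r = 0.920 with Obox5), at 131 CPM (SD 57.4, n = 16) in WT oocytes against 26.2 CPM (SD 19.1, n = 11) in WT 2c embryos.

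Other homeobox genes of oocytes and early embryos gave a setting for these values. Of 36 listed, 31 were in the table and 28 were tested. From MII to 2c in WT, 5 rose and 15 fell, with a median log2 fold change of -1.63 against -1.46 for all genes, and in matPlag1KO 5 rose and 13 fell. Of all genes, 14.1% rose and 51.3% fell in WT, and 13.5% and 50.3% in matPlag1KO. Nobox, a regulator of oocyte genes, went from an average of 1225 CPM (SD 642, n = 16) to 76.4 CPM (SD 42.6, n = 11) at 2c in WT and fell by 5.84 (log2, spike-scaled; edgeR adjusted p = 4.49e-09). Pou6f1, a POU-domain factor, was at 0 in every oocyte and had 88 counts in 9 of 11 WT 2c embryos.

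At 2c between genotypes, 2 of the 28 were called higher and 1 lower in matPlag1KO, with a median of 0.48 against 0.12 for all genes, and 2.3% and 2.62% of all genes were called higher and lower. The lower one was Pknox1, a TALE-class cofactor (41.6 ± 35.5 CPM in WT and 6.64 ± 6.99 CPM in matPlag1KO, n = 11 each; log2 fold change -2.65, edgeR adjusted p = 0.00188). The higher ones were Pou2f1, the octamer-binding factor OCT1 (2.25, edgeR adjusted p = 0.0342), and Crx, a PRD-class relative named for the photoreceptor (1.58, adjusted p = 0.0446).

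Genes known from the 2c stage, where Obox3 peaked, formed the second list. Of 27 listed, 22 were in the table and 18 were tested. From MII to 2c, 13 rose in WT and 17 in matPlag1KO, with medians of 3.12 and 4.17 against -1.46 and -1.42 for all genes, and from 2c to 8c 10 and 12 of the 18 fell, against 16.2% and 19.5% of all genes. The 10 in WT include Zscan4a, Zscan4c and Tdpoz1, which were not called at the first step. Zfp352, a zinc finger gene of the 2c embryo, had 1 count in the WT oocytes and 277 ± 235 CPM (SD, n = 11) in WT 2c embryos, and was at 0.768 ± 1.69 CPM (n = 15) at 8c. In the comparison of genotypes at 2c, 1 was called higher and 3 lower, with a median of 0.66 against 0.12 for all genes. Dppa2, an activator of 2c genes, was at 531 ± 248 CPM in WT and 180 ± 101 CPM in matPlag1KO (n = 11 each; log2 fold change -1.57, edgeR adjusted p = 0.000127), and its partner Dppa4 (-1.39, adjusted p = 0.00482) and the translation factor gene Eif1a (-1.51, adjusted p = 0.0253) were lower as well. Dppa2, Dppa4 and Eif1a do not peak at 2c as Obox3 does, since they rose from 2c to 8c in WT (log2 2.66, 1.25 and 3.75, spike-scaled). The genes called lower thus do not stand for the list, whose median was above that of all genes. Tdpoz4 was higher (3.37, edgeR adjusted p = 0.00142). Obox3, at -0.07, and Zfp352, at 0.14 (edgeR adjusted p = 0.871), were not called.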

How the data were processed

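Single oocytes and embryos were sequenced by single-cell tagged reverse transcription (STRT), which tags mRNA 5′ ends with molecular identifiers, in pools libA and libB (called plates here). Reads were mapped by the authors to mm9 with TopHat and counted over UCSC genes and ERCC spike-ins with HOMER, and the deposited values are raw counts per gene. The treatment of multi-mapped reads and of strand is not given in the sources used here. From the counts, libraries with a median CPM under 1 over genes with at least 1 CPM in 5 libraries were left out, and edgeR 4.0.16 was fitted to all 6 groups at once, with TMM between genotypes and spike-in totals between stages. The SE is the log2 fold change divided by the square root of its F statistic. DESeq2 1.42.0 and the other alternatives are in the closing section. Windows of 32 bases were counted in the mm9 genome, and sequences were aligned with Biopython 1.88. Named genes were the members, the 2 most similar genes of each, and in each list the lowest adjusted p at 2c and the extreme folds from MII to 2c, with Pou2f1, Crx, Zscan4a, Zscan4c, Tdpoz1, Dppa4, Eif1a, Tdpoz4 and Obox7 added after their values were seen. The members and lists were chosen with earlier results of these data known. No 2 libraries of a group agreed within sampling noise (lowest chi-square per degree of freedom 3.54).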

Additional observations from a re-analysis of the deposited data

How the results depend on the processing

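Of the counts of Obox genes called, 121 stayed within 1.5 times the reported count under the alternatives and 6 did not. Plate A alone gave 1 called at MII between genotypes (Obox1) and 2 from 2c to 8c in WT; the likelihood ratio test gave 1 at 2c (Obox6) and 1 at 8c (Obox3) between genotypes; DESeq2 gave 2 at 2c (Obox5, Obox6); and TMM gave 2 from MII to 2c in matPlag1KO. The cause was not tested, except that a single plate holds fewer samples. Of the single log2 fold changes, 440 kept direction and side of the threshold, 6 lost a call, 6 gained one and 11 changed sign. With plate A alone, the values that changed sign were Obox5 at MII (-0.0202) and 2c (-0.10), Obox3 at 2c (0.26), and, for the genotype difference of 2c minus MII, Obox5 (-0.081) and Obox6 (1.77). With plate B alone they were Obox1 (1.34) and Obox6 (2.24) at MII and Obox1 for 8c minus 2c (0.0772). With spike-in totals in place of TMM they were Obox3 at 2c (0.11) and Obox5 for 8c minus 2c (-0.27), and with DESeq2 Obox6 for 2c minus MII (0.0038).

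With spike-in totals in place of TMM the median gene moved from 0 to 0.30 at MII and from 0.12 to 0.28 at 2c. The share of called genes that were higher in KO oocytes moved from 39.5% to 70.8% at MII. For matPlag1KO embryos it moved from 46.7% to 67% at 2c and from 69.7% to 85.8% at 8c. With TMM in place of spike-in totals, the share of called genes that were higher at the later stage also moved in WT. It went from 21.5% to 54.3% for MII to 2c and from 66.3% to 42.2% for 2c to 8c.

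The same well on the 2 plates held a WT and a KO oocyte in 14 pairs, and their deviations from the group means correlated at -0.06 to 0.76 over 8418 genes, with a median of 0.34 and 12 of 14 above 0.1. The pairs at 8c, all of 1 genotype, reached 0.36, with 7 of 12 above 0.1. At 2c the 8 pairs ran from -0.13 to 0.21, with a median of 0.07 and 3 above 0.1. Libraries of the same well thus deviated together in most MII pairs, but not in every pair, and rarely at 2c. No r between libraries of different wells was computed to set beside these. The labels do not say what a well shares, so the block was kept as an alternative. A fit that used wells as a replicate block, with a plate term, called 0 members at MII, with log2 fold changes of -0.13 for Obox1, -1.08 for Obox3, 0.11 for Obox5 and -0.18 for Obox6. At 2c depth, a median of 148473 gene counts in WT, a gene at 1 CPM is mostly not counted.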

Other observations

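The 12 libraries left out for a low median held Obox counts as well. The 3 WT 2c embryos left out, with 4432 to 93953 gene counts, had 23 counts of Obox3, 86 of Obox5, 56 of Obox6 and 1 of Obox1, and the 3 matPlag1KO 2c embryos, with 41889 to 84921 gene counts, had 18, 65, 75 and 3. The 2 KO oocytes left out had 71 counts of Obox1, 179 of Obox5 and 0 of both Obox3 and Obox6, and the 4 matPlag1KO 8c embryos, with 83 to 1721 gene counts, had 1 count of Obox6.

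Obox7 on GRCm38.p6 has a TATATAA that begins 5 bases before its annotated start and runs across that start. Of its last 100 upstream bases, 74 of 74 aligned bases were identical to those of Obox5 and 85 of 86 to those of Obox1. Between genotypes at 2c its log2 fold change was 0.63 ± 0.42 (edgeR adjusted p = 0.381).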
